A study of Mus musculus with 2 samples.

Results

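The folding machinery of the endoplasmic reticulum (ER) was read here through 10 genes, Hspa5, Hsp90b1, Calr, Canx, Pdia3, Pdia4, Pdia6, P4hb, Hyou1 and Xbp1, in polysomes of the newborn mouse brain. They were picked by symbol and role and not by measured values, although earlier results of these data were known. All 10 were found, with 45 of the 109463 transcripts and 10 of the 45578 genes in the table. Ribosome profiling counts short RNA fragments (footprints) that ribosomes protect from nuclease. The 2 samples, replicates 1 and 2, were brains of control animals at postnatal day 5 on the FVB background. Both had the genotype Smn+/-; SMN2tg/0, so each carried 1 disrupted copy of mouse Smn and a human SMN2 transgene, and no animal without these alleles was analysed here. Replicate 1 held 1866831 footprints and replicate 2 held 5261878, 2.82 times as many. With a single group, the data give levels and the difference between 2 libraries, not the effect of a condition.

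Proteins bound for the cell surface, for secretion or for other compartments of the secretory pathway fold inside the ER. Hspa5 (BiP) binds unfolded chains there, Hsp90b1 (GRP94) acts on later folding steps, Calr and Canx hold glycoproteins through their sugars, and protein disulfide isomerases form and rearrange disulfide bonds. When unfolded protein builds up, the sensors Ern1 (IRE1), Atf6 and Eif2ak3 (PERK) start the unfolded protein response. Its transcription factors, Xbp1 and the released part of Atf6, are known to act through the ER stress response element in promoters of chaperone genes. Neurons and glia of the newborn brain make many membrane and secreted proteins, for which this machinery is needed.

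That element is already known from promoters of chaperone genes, so its presence here is a description and no independent result. It was not used to pick the genes and is shown because several of them had it in common. It was searched on both strands as CCAAT, then any 9 bases, then CCACG, in RefSeq promoters (assembly GRCm38.p6, from 250 bases before to 50 bases after the annotated start). Promoters of 9 of the genes were found. Of these, 5 held the element (Hspa5, Hsp90b1, Calr, Canx and Pdia6), with 2 copies in Hsp90b1. Among all promoters of this length, 39 of 32851 (0.119%) held it, which is 37 of 27025 genes. The 6 sites follow, each 5′ to 3′ on its own strand, with the fixed ends in capitals.
Hspa5, chr2:34772025-34772043, plus strand: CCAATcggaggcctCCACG
Hsp90b1, chr10:86705638-86705656, minus strand: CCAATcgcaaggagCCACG
Hsp90b1, chr10:86705533-86705551, plus strand: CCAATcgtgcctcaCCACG
Calr, chr8:84847075-84847093, plus strand: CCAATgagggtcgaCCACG
Canx, chr11:50325800-50325818, minus strand: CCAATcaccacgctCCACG
Pdia6, chr12:17266491-17266509, plus strand: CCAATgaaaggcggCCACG

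The sites lay upstream of the start, with the base farthest from it between -212 (Hsp90b1) and -65 (Hspa5), and the 9 central bases differed in all 6. Those of Hspa5, Canx and Pdia6 and the distal site of Hsp90b1 ran with the gene, whereas the site of Calr and the proximal site of Hsp90b1 ran against it. Each element contains a CCAAT box by definition. That box alone was found in 8 of the 9 promoters, the exception being Xbp1, and in 37.4% of all promoters. The core of the unfolded protein response element, TGACGTGG, was found in none of the 9 and in 0.676% of all promoters. A match is a run of letters and does not show that a factor was bound.

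**Figure D1:**
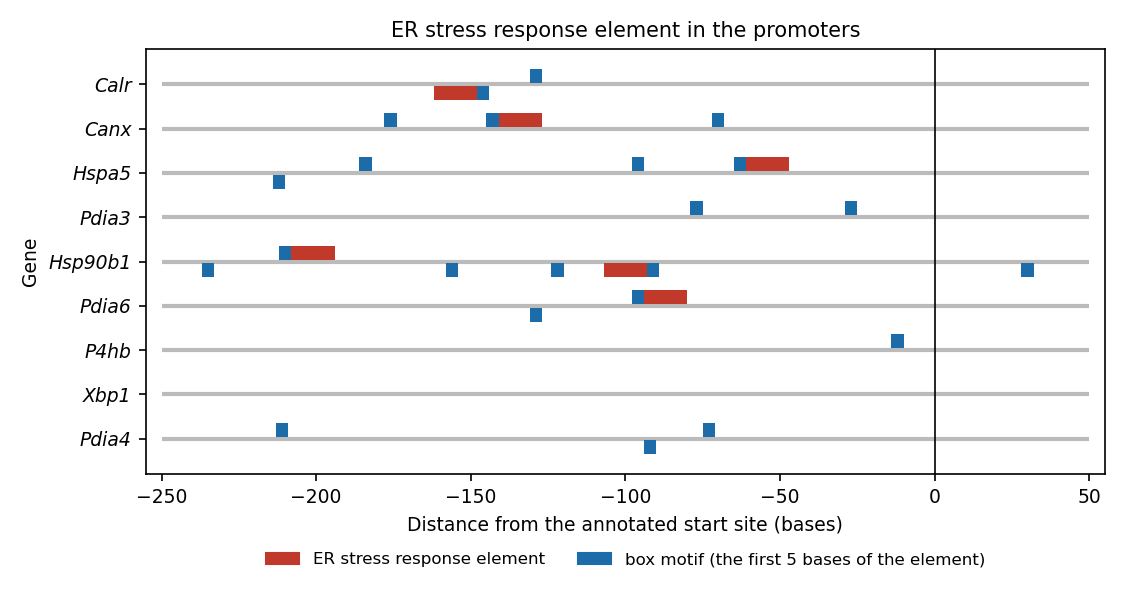
Each grey line is the promoter of 1 gene, with distance from the annotated start site in bases on the x axis. Red bars are the 6 ER stress response elements, and blue bars mark every copy of the box motif that forms the first 5 bases of the element. Bars above the line run with the gene and bars below run against it.

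The element was also present in 5 genes of the wider ER lists described further on. These were Dnajc3, a BiP co-chaperone, Creld2, an ER-resident folding factor, Ero1lb, an oxidase that recharges disulfide isomerases, and Derl3 and Syvn1, which serve degradation of misfolded protein. Promoters were found for 126 of the 161 genes on those lists. For Dnajc3, the site (chr14:118937827-118937845, plus strand) read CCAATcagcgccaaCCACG. For Syvn1, an E3 ligase of the ER membrane, the site (chr19:6046532-6046550, plus strand) read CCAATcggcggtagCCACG. Together, 10 of the 37 genes with the element were chaperones or ER genes of these lists. Footprints on them ranged widely, with 1420 and 2953 on Calr and 1295 and 3230 on Canx in replicates 1 and 2, and 0 and 4 on Derl3.

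All 10 chaperone genes were well covered. Their summed share of all footprints was 0.373% (95% interval 0.364 to 0.382, Clopper-Pearson) for replicate 1, and for replicate 2 it was 0.331% (0.326 to 0.336). The mean share was 0.352% ± 0.0298 (SD, n = 2). Intervals cover counting error only, since PCR copies are not independent molecules. Counts were summed over the transcripts of a gene, and the treatment of fragments shared by several transcripts is not given. If 1 fragment was counted on several transcripts, sums and densities would be too high and intervals too narrow for such genes. To compare genes of different length, counts were scaled to the library total (CPM) and divided by the length of the coding sequence. This footprint density is given as CPM per kb. Its median over 13317 coding genes (mean count 10 or more) was 23.9, and the median over the 10 chaperone genes was 186. Of the 10, 6 lay in the top 10% of coding genes.

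The lectin chaperones had the highest densities. Calr (calreticulin, soluble in the ER lumen) had 1420 and 2953 footprints in replicates 1 and 2. This came to 761 CPM (95% interval 722 to 801) and 561 CPM (541 to 582), and to a density of 608 and 449 CPM per kb, with a mean of 528 ± 113 (SD, n = 2). This placed it at percentile 98.5 of coding genes. Canx (calnexin, its membrane-bound relative) had 1295 and 3230 footprints, which is 694 CPM (656 to 733) and 614 CPM (593 to 635). Its density was 391 and 346 CPM per kb, at percentile 97.1. Calr was denser than Canx by a factor of 1.56 in replicate 1 and 1.30 in replicate 2. This order depended on which transcripts were counted: on coding transcripts alone, Canx had 311 CPM per kb and Calr 245.

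Among the chaperones of the Hsp70 class, Hspa5 had 965 and 2438 footprints, which is 517 CPM (95% interval 485 to 551) and 463 CPM (445 to 482). Its density was 263 and 235 CPM per kb, at percentile 94.7. Hyou1 (GRP170), a large relative that exchanges nucleotide on BiP, had 421 and 1219 footprints and a density of 75.2 and 77.2 CPM per kb. BiP therefore carried 3.49 times the density of Hyou1 in replicate 1 and 3.05 times in replicate 2. Hsp90b1, the Hsp90 of the ER, had 877 and 2398 footprints, at 469.8 CPM (439 to 502) and 456 CPM (438 to 474). Its density of 195 and 189 CPM per kb was below that of Hspa5 in both replicates.

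The disulfide isomerases spanned a wide range. Pdia3 (ERp57), which works with Calr and Canx on glycoproteins, was the densest of the 4, with 713 and 1904 footprints and 252 and 238 CPM per kb. Pdia6 followed with 452 and 1249 footprints and 181 and 177 CPM per kb. P4hb (PDI), which is also a subunit of collagen prolyl hydroxylase, had 483 and 1091 footprints and 169 and 136 CPM per kb. Pdia4 (ERp72) was the lowest of all 10 genes, with 215 and 541 footprints and 59.8 and 53.4 CPM per kb, yet it stood at percentile 73.05 of coding genes. It had 1 annotated transcript, whereas the others had 3 to 8. Whether its last place depends on how shared fragments were counted was not tested. The density of Pdia3 was 4.21 times that of Pdia4 in replicate 1 and 4.47 times in replicate 2. On coding transcripts alone the order was different, with mean densities of 150.2 CPM per kb for P4hb, 145 for Pdia3, 76.9 for Pdia6 and 56.6 for Pdia4.

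Xbp1, the transcription factor of the response, had 121 and 380 footprints. These gave 64.8 CPM (95% interval 53.8 to 77.4) and 72.2 CPM (65.1 to 79.9), and no other of the 10 had a lower CPM. Its coding sequence is short, so its density of 80.6 and 89.8 CPM per kb was above those of Hyou1 and Pdia4.

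**Figure D2:**
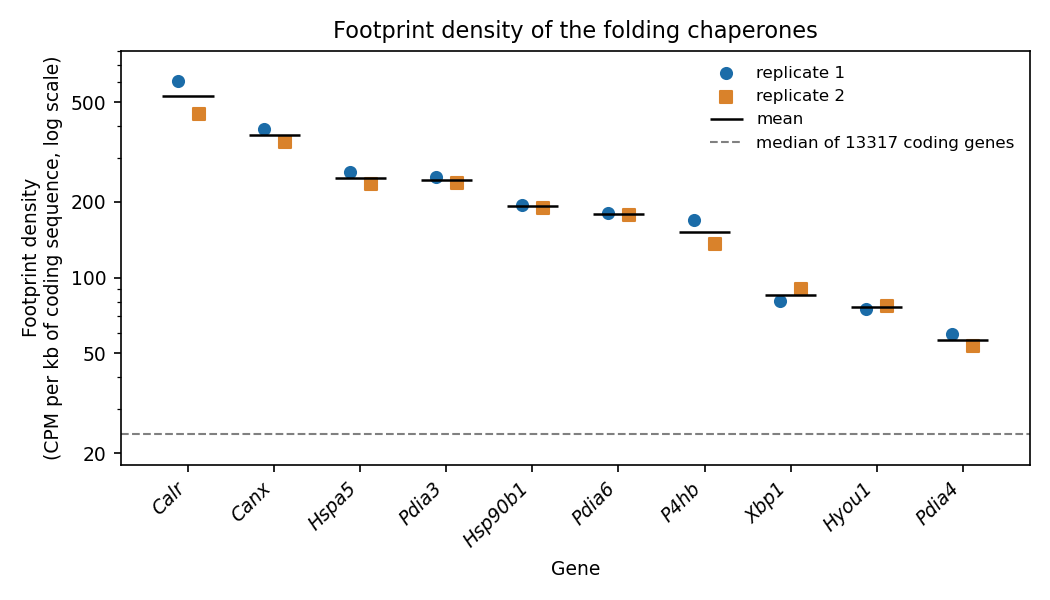
Footprint density of each gene in CPM per kb of coding sequence, on a log axis, with circles for replicate 1, squares for replicate 2 and a bar for their mean. All values lie above the dashed line, the median of 13317 coding genes at 23.9. The highest mean is 528 (Calr) and the lowest 56.6 (Pdia4).

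From the top, the order by mean density was Calr, Canx, Hspa5, Pdia3, Hsp90b1, Pdia6, P4hb, Xbp1, Hyou1 and Pdia4, with a 9.34-fold range. Hspa5 and Pdia3 overlapped between replicates and exchanged places. In the other 8 of 9 neighbouring pairs, the lower replicate of the denser gene was above the higher replicate of the next. With 2 replicates, this separation is a description and was not tested. When CPM was divided by transcript length weighted by counts instead, Canx moved to the fourth place at 187 CPM per kb, and Xbp1 fell below Hyou1. Pdia4 was last in that setting too, but Hyou1 was last on coding transcripts alone.

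The replicates were then compared gene by gene. For each of 16427 genes (mean count 10 or more), the split of its footprints was tested two-sided with an exact binomial test. The expected split came from library sizes scaled by TMM. Genes with a Benjamini-Hochberg adjusted p below 0.05 were called. Of all genes, 17.4% were called, with 5.95% higher and 11.5% lower in replicate 2. Of the 10 chaperone genes, 6 were called, all lower in replicate 2. The median log2 ratio of the 10 (replicate 2 over replicate 1) was -0.24, against 0.01 over all genes tested, and 1 of the 10 ratios was above 0.

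Calr had the lowest ratio, at -0.56, and its adjusted p by the exact test was 5.42e-30. P4hb was at -0.44 (adjusted p of 1e-06), Canx at -0.30 (1.38e-08) and Hspa5 at -0.28 (8.03e-06), also by the exact test. Smaller differences were called for Pdia3, at -0.20 (exact test, adjusted p of 0.0121), and Hsp90b1, at -0.17 (0.0216). The other 4 were not called. Their ratios were -0.29 for Pdia4 (exact test, adjusted p of 0.0718), -0.15 for Pdia6 (0.185), -0.09 for Hyou1 (0.552) and 0.03 for Xbp1 (0.968). Pdia4 had fewer footprints than the called genes, and its ratio was as low as that of Hspa5. These p-values compare 2 libraries and cover counting error only. They would be too small if fragments were counted on more than 1 transcript.

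The call for several genes rested on the scaling. Compared with library totals, TMM placed all ratios 0.13 lower on the log2 scale. Over all genes, 34.2% of calls were higher in replicate 2 with TMM and 60.7% with library totals. With library totals, 4 of the 10 were called lower (all genes 7.47%), namely Calr, P4hb, Canx and Hspa5. Hsp90b1 was then at -0.04 and Pdia3 at -0.08, and Hyou1 turned to 0.04. With the transcript of highest count for each gene, 4 were called lower (all genes 7.75%), and Hspa5 and Pdia3 were lost. When a mean count of 100 or more was required, Pdia4 was added and 7 were called lower (all genes 22.8%). In the exact test of edgeR, which allows for spread between replicates, 0 of 10 were called (all genes 0.067%) and 0 had an unadjusted p below 0.05. Its common dispersion was taken from the same 2 libraries, so the difference under test was already counted as spread. Few calls were therefore likely beforehand, and this setting cannot decide whether the genes differed.

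The ratio also moved with the number of footprints per kb of transcript over all genes. At the values of the 10 genes, its running median over 500 genes lay between -0.32 (Calr) and -0.03 (Pdia4). Once this median was subtracted, 2 of the 10 were called lower (all genes 9.98%). These were Calr at -0.24 (exact test, adjusted p of 9.22e-06) and P4hb at -0.29 (0.00273). Pdia4 was at -0.26 and was not called (exact test, adjusted p of 0.114). Hspa5 was then at -0.05 and Canx at -0.08, while Hsp90b1, Pdia3 and Pdia6 turned to 0.056, 0.031 and 0.043. The ratios of these 5 genes were thus within 0.08 of the median of genes with like numbers per kb of transcript.

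**Figure D3:**
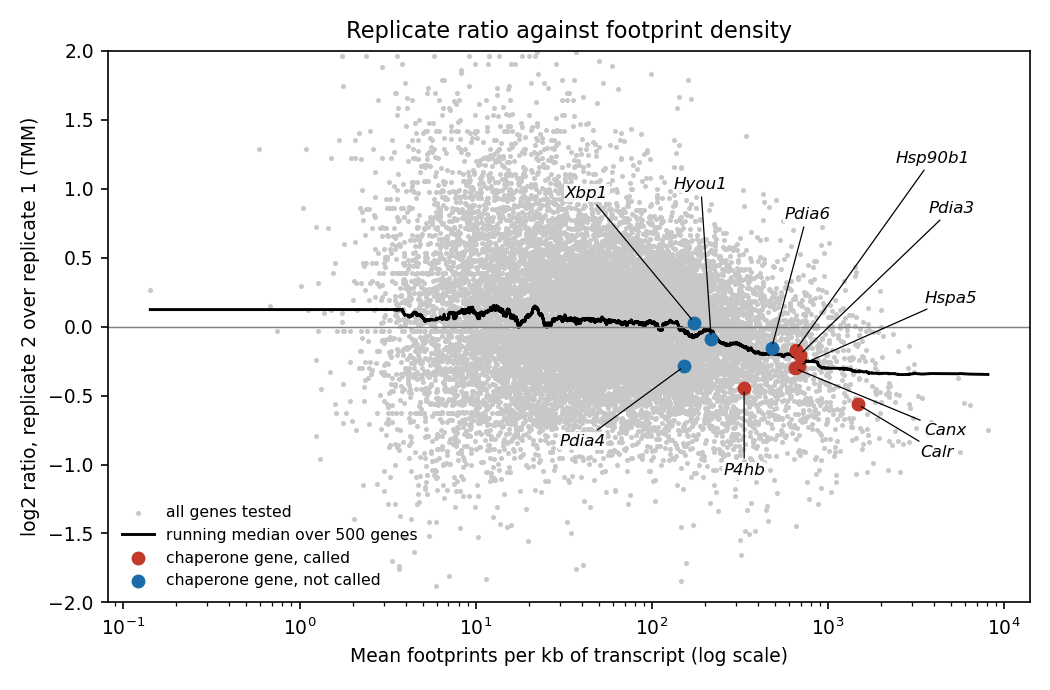
Log2 ratio of replicate 2 over replicate 1 against mean footprints per kb of transcript (log axis) for 16427 genes in grey, of which 48 lie beyond the y axis. The black line is the running median, red points are called chaperone genes and blue points are those not called. Calr, P4hb and Pdia4 lie below the line, and the other 7 genes lie closer to it.

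Marker genes of cell types were compared between the 2 libraries. Neuron markers, 8 genes, took 0.451% of the footprints in replicate 1 and 0.339% in replicate 2. By CPM, Tubb3 (1422 and 782), Stmn2 (897 and 556), Snap25, Syt1 and Slc17a6 were lower in replicate 2. Dcx (553 and 592), Gad1 (244 and 253) and Rbfox3 (172 and 181) were slightly higher. With TMM, 5 of 8 were called lower and none higher. The median density of these 8 genes was 467 CPM per kb, and their median log2 ratio was -0.34. The running median, lower at high footprint numbers as described above, was not removed from the marker values. Lower marker values are therefore not read as fewer cells. Marker counts stand beside 11.5% lower and 5.95% higher over all genes, and 22.8% lower with a mean count of 100 or more. Markers of meninges and fibroblasts, cells that secrete collagen, took 0.173% and 0.159%, with 4 of 7 called lower and 1 higher. Choroid plexus markers took 0.0795% and 0.0570%, with 1 of 6 tested called lower and 1 higher. The lower gene was Ttr, at 582 and 277 CPM, whereas Enpp2 was called higher, at 159 and 232 CPM. Astrocyte markers took 0.255% and 0.232%, with 3 of 7 called lower, and oligodendrocyte markers 0.106% and 0.129%, with 3 of 7 higher and 2 lower. Microglia took 0.0233% and 0.0238%, with 1 of 6 higher and 2 lower, and endothelium 0.0329% and 0.0342%, with 1 of 6 higher and 1 lower. Skeletal muscle markers took 0.00787% and 0.00633%, mostly from Acta1 (140 and 264 footprints), the 1 of 3 tested that was called lower. Ckm (3 and 4) was also lower by CPM. Myh3 (1 and 20), Myh8 (2 and 30), Tnnt3 (1 and 10) and Myl1 (0 and 5) were higher by CPM, on few footprints. Pituitary markers took 0.00150% and 0.000532%, with Prl and Tshb at 0 in both. Gh (15 and 0), Pomc (8 and 9) and Lhb (1 and 2) were lower by CPM. Cga (1 and 5) and Pou1f1 (3 and 12) were higher. Of the 6 liver markers, Alb and Fgb were at 0 in both libraries, and Ttr, which choroid plexus makes, held nearly all footprints. The summed shares of neuron, astrocyte, meninges and choroid plexus markers were thus lower in replicate 2, as Calr and P4hb were, and that of oligodendrocytes was higher. Their part in the differences of the chaperone genes was not tested. In whole brain, fewer cells of a type and fewer footprints per cell cannot be told apart.

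The table assigns footprints to annotated transcripts, and many fell on transcripts not annotated as coding. Over the 10 genes, coding transcripts held 67.6% ± 0.504 of the footprints (SD, n = 2), against 75.5% ± 1.09 over the library. Transcripts with a retained intron held 23.4% ± 0.368, against 9.36% ± 0.387. Such transcripts share exons with the coding ones, so their counts do not show that introns were translated. Calr had 3 of them, which held 53.4% of its footprints in replicate 1 (95% interval 50.7 to 56.0) and 53.7% in replicate 2 (51.9 to 55.6). Calr-004, of 943 nucleotides, alone held 403 and 810 footprints, whereas the coding Calr-001 held 662 and 1366 over 2184 nucleotides. Per 100 nucleotides, Calr-004 had 42.7 and 85.9 footprints and Calr-001 had 30.3 and 62.5.

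Pdia6 was similar, with 42.7% and 43.2% of its footprints on its 1 coding transcript and 44.5% and 41.4% on 2 transcripts with a retained intron. Hsp90b1 had 35.5% and 38.9% on retained-intron transcripts. Pdia4 had a single transcript, and P4hb had 98.8% and 98.4% on coding transcripts. Among 6000 genes with several transcripts and a mean count no lower than 100, the median share on coding transcripts was 78.6%. Pdia6 lay at percentile 8.28 of these genes and Calr at percentile 10.8.

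Some transcripts had the same coding length. Hspa5-001 and Hspa5-002 both code for 655 residues, and they held 365 and 351 footprints in replicate 1 and 892 and 917 in replicate 2. Canx-001 and Canx-201 both code for 591 residues, and they held 561 and 539 in replicate 1 and 1357 and 1364 in replicate 2. Hyou1 had 3 transcripts of 999 residues, with 74, 101 and 82 footprints in replicate 1 and 238, 251 and 217 in replicate 2.

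Pdia3-003 was singled out after its values were seen, because the intervals of its share did not overlap between replicates. How often this occurred over all transcripts is not given here, so it is not read as particular to Pdia3. The short processed transcript Pdia3-003, of 400 nucleotides, held 14.03% of the gene in replicate 1 (95% interval 11.6 to 16.8) and 8.82% in replicate 2 (7.59 to 10.2). This difference was not tested further.

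Of the Xbp1 transcripts, Xbp1-001 had the longest annotated coding sequence, at 804 nucleotides or 267 residues, which is the unspliced reading frame. It held 53 footprints in replicate 1 and 142 in replicate 2, or 43.8% (95% interval 34.8 to 53.1) and 37.4% (32.5 to 42.4) of the gene. Active IRE1 removes a short intron from this mRNA and so creates a longer frame. No transcript with that longer frame was listed, so the spliced share was not read from these counts.

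**Figure D4:**
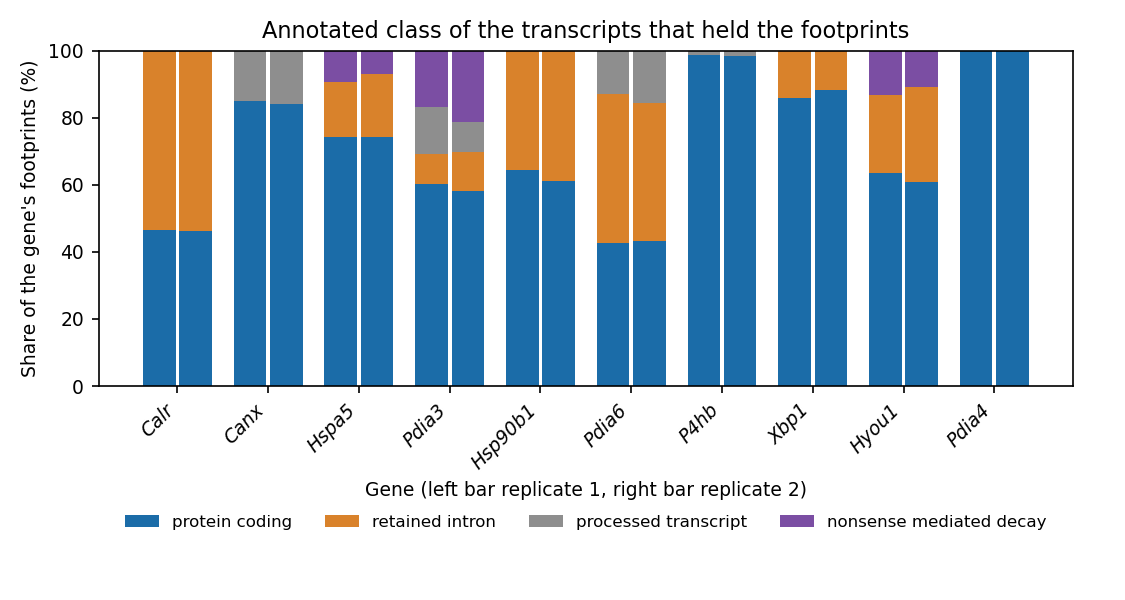
Share of the footprints of each gene on transcripts of 4 annotated classes, with the left bar for replicate 1 and the right bar for replicate 2. Retained-intron transcripts hold over 40% of the footprints of Calr and Pdia6 in both replicates, and Pdia4 has coding footprints alone.

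The rest of the pathway was described through 9 lists with 161 genes, of which 152 could be tested. Of these, 39 were called, 10 higher and 29 lower in replicate 2, with a median log2 ratio of -0.02. That is 25.7% called, beside 17.4% of all genes (5.95% higher and 11.5% lower). Genes with more footprints are easier to call, so these shares are no background at like coverage. With a mean count of 100 or more, 40 of 120 list genes were called, beside 2742 of 8060 over all genes. The share called is therefore not read as particular to these lists. With library totals the balance turned to 19 higher and 14 lower, and all ratios stood 0.13 higher. Directions and medians of the lists are therefore relative to TMM. Medians close to 0 or slightly below, among them those of the BiP cofactors and the disulfide isomerases, were above 0 with library totals. Those of the oligosaccharyltransferase and collagen folding lists were below 0 in both.

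Cofactors of BiP and GRP94 had a median ratio of -0.03 and 1 of 16 called, Cnpy3, lower at -0.46 (exact binomial test, adjusted p of 0.00664). The densest was Manf, a BiP partner and secreted neurotrophic factor, at 194 and 182 CPM per kb, close to Hsp90b1. Dnajb11 (ERdj3), a co-chaperone of BiP, had 102 and 114 CPM per kb, so BiP was 2.58 and 2.07 times as dense. Sil1, which exchanges nucleotide on BiP as Hyou1 does, had 25.7 and 19.7 CPM per kb. Dnajc3 had 26.2 and 24.7 CPM per kb, and BiP was 10.04 and 9.53 times as dense.

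Other disulfide and proline isomerases had a median of -0.09 and 5 of 23 called, all lower. Tmx2, a thioredoxin-like membrane protein, was the densest at 242 and 244 CPM per kb, and Fkbp9 was the lowest of the called, at -0.60 (exact test, adjusted p of 0.0019). Of the calnexin cycle and glucosidases, 3 of 9 were called higher and 2 lower, with a median of 0.20. Uggt2, which marks misfolded glycoproteins for another round with Calr and Canx, was higher at 0.67 (exact test, adjusted p of 0.0301), with 41 and 203 footprints. Lman2, a cargo lectin, was lower at -0.47 (0.0248 in the same test), and Prkcsh, a glucosidase subunit, was the densest at 85.5 and 92.7 CPM per kb. The sugar-binding chaperones themselves were lower, at -0.56 for Calr and -0.30 for Canx.

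The oligosaccharyltransferase, which adds the sugars that Calr and Canx read, had a median of -0.18 and 5 of 11 called, all lower. Ddost was at -0.89, on 385 and 639 footprints (exact test, adjusted p of 2.07e-18), while its small subunit Ost4 was the densest at 376 and 362 CPM per kb. The translocon and signal peptidase list went both ways, with 5 of 23 higher, 4 lower and a median of 0.08. Sec61g, a small subunit of the channel, was the densest, and its density of 342 and 529 CPM per kb differed with a ratio of 0.50 (exact test, adjusted p of 0.00233). Srp54a was highest among the called at 0.53 (0.0143 in the same test) and Sec61b lowest at -0.42 (0.0126).

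ER-associated degradation had 1 of 23 called higher and 5 lower, with a median of 0.01. Selk, a selenoprotein of the ER membrane, was the densest at 321 and 257 CPM per kb. Ube2j2, a conjugating enzyme, was higher at 0.56 (exact test, adjusted p of 0.00421), and Derl1, a channel component, was lower at -0.45 (0.0322). Among sensors and regulators of the unfolded protein response, 2 of 20 were called, both lower (median of -0.0034), with Bax the lowest at -0.70 (exact test, adjusted p of 1.85e-05). The sensors Ern1, Atf6 and Eif2ak3 were thinly covered beside the chaperones. Ern1 had 16 and 60 footprints, Atf6 had 32 and 129, and Eif2ak3 had 56 and 157, and none of these 3 was called. Atf6b, a relative of Atf6, was better covered, with 255 and 619 footprints and 64.4 and 55.5 CPM per kb. It was called lower, at -0.34 (exact test, adjusted p of 0.0133). Ddit3 (CHOP), a factor induced in prolonged stress, had 11 and 44. Tmbim6, an ER membrane protein that restrains cell death, was the densest of all pathway genes at 656 and 685 CPM per kb.

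The ER calcium store had 1 of 15 called higher and 3 lower, with a median of -0.02. Its densest gene was the calcium pump Atp2a2, at 269.6 and 259 CPM per kb, beside 263 and 235 for Hspa5. Calu (calumenin) was higher at 0.36 (exact test, adjusted p of 0.00147) and Rcn2 lower at -0.26 (0.0248). Calr, which also buffers ER calcium, was lower at -0.56, but 1 ratio per gene shows no shared pattern. Of the collagen folding genes, 2 of 12 were called, both lower (median of -0.17), with Col1a1 at -0.55 (exact test, adjusted p of 4.37e-11). Serpinh1, the collagen chaperone, had 121 and 117 CPM per kb and was not called, at -0.18 (adjusted p of 0.247 in the same exact test), whereas P4hb, the hydroxylase subunit, was.

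**Figure D5:**
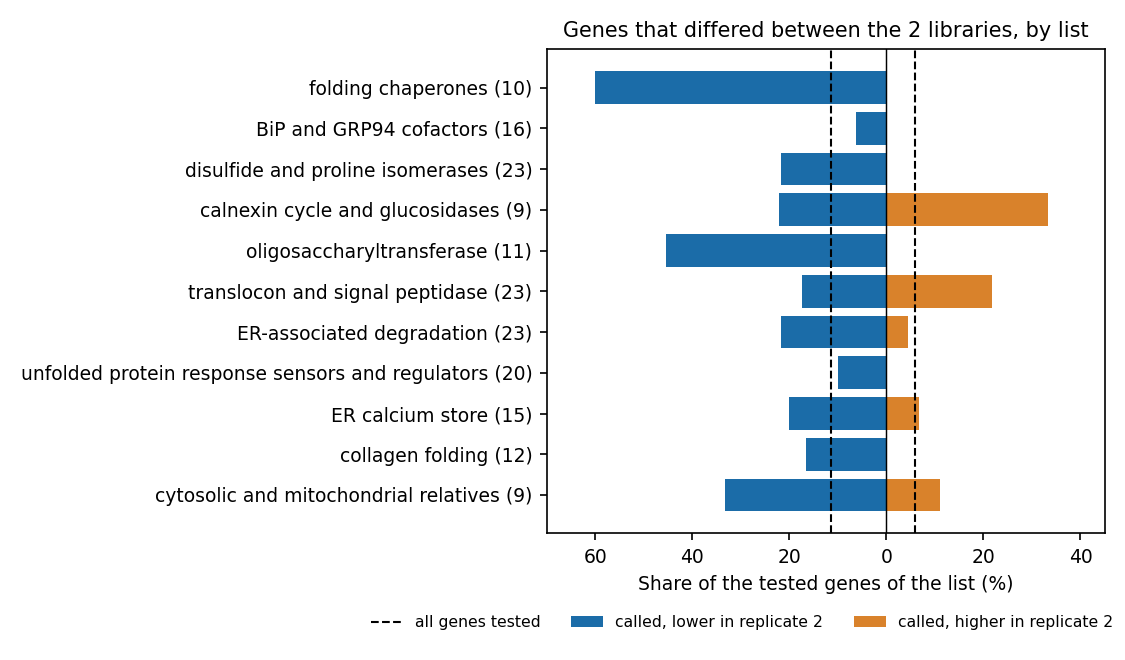
Share of the tested genes of each list that were called, with genes lower in replicate 2 to the left and genes higher to the right; the number tested is in brackets. Dashed lines mark the share over all genes with a mean count of 10 or more, 11.5% lower and 5.95% higher. With a mean count of 100 or more, 22.8% of all genes were called lower. Of the folding chaperones 6 of 10 were called lower and none higher.

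Relatives in other compartments were set beside the ER genes per length. Hspa8, the cytosolic Hsp70 of unstressed cells, had 922 and 836 CPM per kb, which is 3.51 and 3.55 times Hspa5. Hspa9 (mortalin), the mitochondrial Hsp70, had 113 and 107 CPM per kb, or 0.429 and 0.456 times Hspa5. Hsp90ab1, a cytosolic Hsp90, had 787 and 599 CPM per kb, or 4.04 and 3.17 times Hsp90b1. The order from cytosol to ER to mitochondria for Hsp70 was thus the same in both replicates. The cytosolic exchange factors Hspa4 and Hsph1 were 1.70 and 1.60 times as dense as Hyou1 in replicate 1 and 1.74 and 1.75 times in replicate 2.

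Tissue-restricted relatives were scarce. Calr3 had 0 and 4 footprints, Calr4 had 1 and 3, and Pdilt had 1 and 1. In replicate 1, the 0 on Calr3 allowed a level of up to 1.61 CPM, taking 3 counts as the limit. Clgn (calmegin), a relative of Canx known from testis, had 24 and 135 footprints and was called higher, at 0.85 (exact test, adjusted p of 0.0344). An annotated pseudogene of calreticulin, Calr-ps, had 31 and 84 footprints, so Calr had 45.8 and 35.2 times as many. Footprints of Calr can match this copy. By the RefSeq annotation, Hspa5, Pdia3, Pdia4 and Pdia6 each overlap 1 other gene, and whether the counts used strand is not given in the sources used here.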

How the data were processed

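Footprints from sucrose-gradient polysomes of 2 P5 brains had been size-selected at 25 to 35 nucleotides, per the labels' protocols. The authors deposited whole-number counts per transcript, unnormalized, with transcript and coding lengths. The submitters' processing notes name Trimmomatic 0.36, Bowtie2 2.2.6, SAMtools and build GRCm38.p4. Settings, annotation release and treatment of shared fragments are not given in the sources used here.

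Transcript counts were summed per gene. CPM used library totals, and density used the coding length of the coding transcript with the highest mean count. The exact binomial test (SciPy 1.17.1) used edgeR 4.0.16 TMM factors of 0.957 and 1.04. Log2 ratios carry a prior of 0.5 CPM. A quasi-likelihood test had no contrast. P-values were adjusted over 16427 genes by the Benjamini-Hochberg method. Alternatives were DESeq2 1.42.0 size factors, library totals, other count filters, other transcript choices, edgeR's exact test and removal of a running median over footprints per kb of transcript. The labels call the samples biological replicates, but p-values compare these 2 libraries alone.

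The members and lists were chosen with earlier results of these data known. Named from each list were the densest gene and, where the mean count reached 100, the called genes of highest and lowest ratio. Relatives were named beside them. Dnajb11, Dnajc3, Sil1 and the stress sensors were named for their role, and other genes for the promoter element. Of the list symbols, 2 were matched through RefSeq synonyms. Protein sequences were not used here.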

Additional observations from a re-analysis of the deposited data

How the results depend on the processing

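No paired analysis was possible because the study has 1 group. The number of chaperone genes called, 6, was 0 with edgeR's exact test, where 0 had an unadjusted p below 0.05, and 2 with the running median over footprints per kb of transcript removed. In that last setting the ratios of Hsp90b1 and Pdia3 turned to 0.056 and 0.031. In the other 6 settings the number was 4 to 7, and all calls were lower in replicate 2. The number called over the pathway lists, 39, was 17 with the transcript of highest count and 0 with edgeR's exact test, where 1 had an unadjusted p below 0.05. Over all genes the number also fell, from 2861 of 16427 to 1444 of 15353 and 11 of 16427. For the lists it was 30 to 40 in the other 6. With edgeR's exact test few calls were likely beforehand, because its dispersion came from the same 2 libraries. The cause of the other changes was not tested. The share of the 10 genes, 0.352%, was 0.331% and 0.373% when either replicate was left out. On coding transcripts alone the share was 0.315%, taken of the coding footprints and not of the whole library. Coding-only densities, in contrast, kept the whole library as total. On coding transcripts alone the density of 8 of 10 genes moved by more than the replicate SD. Replicate 1 is the shallower library and limits Xbp1 and Pdia4 most. Footprint position, reading frame and RNA abundance were not analysed here, so densities are not translational efficiencies.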
